A study of Gallus gallus with 8 samples.

Results

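The regions described here are the m6A peaks that lie in the last exon of a transcript of broiler liver without touching an annotated untranslated region (UTR). They were chosen by the authors' annotation alone, as entries marked as an exon, numbered N of N with N of 2 or more, after exact repeats were dropped. There were 625 such peaks among the 5938 of the LPS list and 718 among the 7813 of the control list, 1343 of 13751 in all. The LPS group had received 1 mg/kg lipopolysaccharide of Escherichia coli 055:B5 into the peritoneum, and the control group the same volume of phosphate-buffered saline. All birds were 21-day-old broiler chicks, and livers were taken 2 h later. RNA of each state was sequenced as the fraction pulled down by an m6A antibody (IP) and as input, in 8 libraries, 2 for each of the 4 groups. The labels name no genotype, and nothing in them ties the libraries of a group to separate birds, so a p-value covers only the spread between these libraries. The authors deposited 1 pooled peak list for each state, so a peak has 1 fold enrichment (IP over input, the authors' value) in each list and no replicate error.

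N6-methyladenosine (m6A) is a methyl mark placed on internal adenosines of messenger RNA by a nuclear writer complex that includes the adaptor WTAP. It is read by proteins of the YTH family, which steer the marked RNA to decay, translation or export. In vertebrate transcripts the mark is dense in long internal exons, around stop codons and along last exons, and sparse close to splice junctions. A last exon usually holds the end of the coding sequence, the stop codon and the 3′ UTR, so a last exon peak outside the UTR usually marks the final coding stretch.

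The 4 input libraries had FPKM sums of 539984 to 568721 and 9016 to 9536 genes at 1 FPKM or more. FPKM carry no read totals, so the absolute depth is unknown. All 12 hepatocyte markers found in the table were at 1 FPKM or more in every input library, with summed levels of 83656 and 83053 FPKM in LPS and 75144 and 72397 FPKM in control libraries. In the expression test below, 4 of the 12 were higher and 2 lower after LPS, beside 10.7% and 31.4% of all tested genes. Their means ran from 143 to 25541 FPKM, so the sum rests most on the highest genes. The 5 macrophage markers found, of 7 named, summed to 372 and 353 FPKM in LPS and 681 and 762 FPKM in control libraries. The 6 endothelial markers summed to 42.7 and 34.2 FPKM in LPS and 63.9 and 54.3 FPKM in control libraries. The 3 bile duct markers found, of 4 named, summed to 61.7 and 87.4 FPKM in LPS and 26.9 and 48.6 FPKM in control libraries. Means of the bile duct genes ran from 0.0944 to 48.0 FPKM, so 1 gene made up much of that sum. In whole liver, fewer cells of a type and less RNA in each cell cannot be told apart. The part of these shifts in the results on peaks was not tested.

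Last exon peaks made up 10.5% of the LPS list (exact binomial 95% interval 9.76 to 11.3%) and 9.19% of the control list (8.56 to 9.85%). These intervals cover counting error only, since each list is a single pooled call. Each last exon peak was 1 unbroken block, whereas 80.6% of 3′ UTR peaks and 38.2% of internal exon peaks were so in the LPS list, and 77.7% and 38.9% in the control list. A peak carries 1 label, and a broken peak that touches the last exon also covers an earlier exon. How far the labelling sets this contrast was not tested. The median length of last exon peaks was 181 bases in the LPS list and 211 bases in the control list. The median fold enrichment was 4.82 in the LPS list, with values of 1.29 to 177, and 5.26 in the control list, with values of 1.37 to 471. In both lists that median lay between those of internal exon peaks, 4.04 in LPS and 4.31 in control, and of 3′ UTR peaks, 5.53 and 6.30. With 1 list for each state there is no test of a difference between classes, and these values are a description.

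The rule asks for at least 2 exons. The 102 peaks of the LPS list in transcripts of exactly 2 exons had a median fold enrichment of 5.24, and the 123 of the control list 6.25. Peaks of transcripts with a single exon, which the rule leaves out, numbered 157 in the LPS list and 216 in the control list, with medians of 6.27 and 7.78.

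The peaks gathered at the transcript end in part, with the rest spread over distances of up to 5307 bases in LPS and 6535 bases in control. Within 100 bases of the end lay 176 LPS peaks (28.9%) and 256 control peaks (36.4%). These distances are over the 609 LPS and 704 control peaks whose annotated exon belonged to the gene the peak was assigned to. The 3′ edge of a peak was a median of 538 bases from the end of its transcript in the LPS list and 418 bases in the control list. In the LPS list 217 peaks (35.6%) ended over 1000 bases before the end, and in the control list 220 (31.2%). Counted from the upstream edge of the peak to the transcript end, the last exon was at least 1000 bases long for 262 LPS peaks (43.0%) and 274 control peaks (38.9%), and at least 3000 bases for 47 and 67. The median transcript had 7 exons in both lists.

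The label "outside UTRs" holds only as far as the transcript models go. The last base of the transcript was reached, without touching an annotated 3′ UTR, by 128 LPS peaks (21.0%) and 178 control peaks (25.3%). The model thus seems to hold no 3′ UTR at that end, and a model without a 3′ UTR can hold no 3′ UTR peak. Of the end-reaching peaks, 0 LPS peaks and 1 control peak lay in a transcript with a 3′ UTR peak in either list. For that 1 control peak the reading does not hold. The end-reaching peaks had a median fold enrichment of 5.99 in the LPS list and 7.15 in the control list, against 4.48 and 4.78 for the others. Whether they mark coding sequence or an untranslated end missing from the model cannot be told from the annotation.

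**Figure D1:**
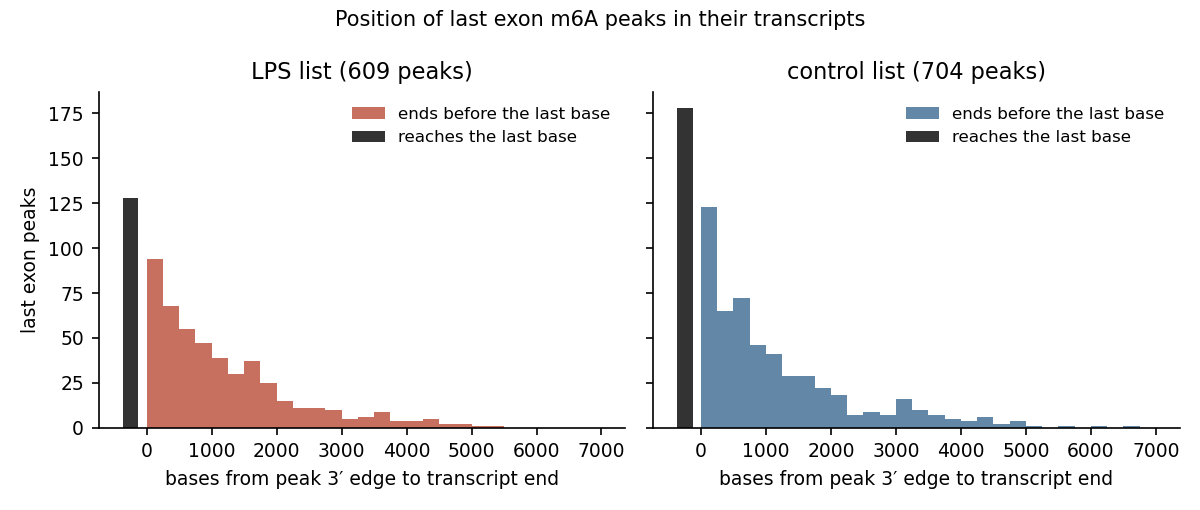
Number of last exon peaks (vertical axis) by the distance in bases from the peak's 3′ edge to the transcript end (horizontal axis, bins of equal width), LPS list on the left and control list on the right. The dark bar left of 0 counts the 128 LPS and 178 control peaks that reach the last base, and the coloured bars count the rest, which thin out over distances of up to 5307 bases in LPS and 6535 bases in control.

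The highest fold enrichments belonged to genes of varied function. DAG1, which encodes dystroglycan, a link between the cytoskeleton and the extracellular matrix, had a 929-base peak at 177-fold in the LPS list (chromosome 12, 2441415 to 2442343) and a 2277-base peak at 374-fold in the control list (2441415 to 2443691). Positions are 1-based, as in the authors' lists, whose genome build is not given in the sources used here. Beyond that first peak, the LPS list had 2 further DAG1 peaks of 540 and 570 bases, at 8.49-fold and 12.1-fold, inside the span of the single control peak. DAG1 RNA was at 42.7 and 33.3 FPKM in LPS libraries and 35.2 and 53.1 FPKM in control libraries, and these ranges overlap.

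MTSS1L, a membrane-bending regulator of actin, followed in the LPS list with 170-fold over 269 bases (chromosome 11, 1703445 to 1703713), against 28.3-fold over 746 bases in the control list. TTC25, which encodes a protein of the ciliary motor, had 150-fold in the LPS list (chromosome 27, 4733394 to 4733719), where its control counterpart, annotated to an internal exon, had 192-fold. The input of TTC25 was low, at 0.646 and 0.318 FPKM in LPS and 2.53 and 2.76 FPKM in control libraries, without overlap, and was lower after LPS (log2 fold change −1.31, SE 0.23, limma adjusted p = 0.00392). NES, which encodes the intermediate filament nestin, had 83.1-fold (chromosome 25, 486465 to 486825), and an overlapping entry had 70.3-fold. Both NES entries carry an exon of a second gene without a symbol, so the gene they mark is uncertain. RAPH1, a regulator of actin at the cell edge, had 72.4-fold (chromosome 7, 13089040 to 13089220) and a second RAPH1 peak of the LPS list 40.0-fold. Both lay on 1 control peak of 510 bases at 62.0-fold, which is paired with the weaker of them (log2 difference −0.63).

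The control list was led by SDK2, a cell adhesion molecule, with 471-fold over 241 bases (chromosome 18, 9295298 to 9295538). SDK2 was at 0.381 and 0.416 FPKM in LPS libraries, and at 1.08 and 14.0 FPKM in control libraries, so the control libraries differed widely from each other. DAG1 came next, and then KIAA1919, a sugar transporter gene, with 201-fold (chromosome 3, 65614622 to 65614980). A gene without a symbol, ENSGALG00000026332, had 114-fold. HINFP, a transcription factor of histone genes, had 103-fold (chromosome 24, 4281656 to 4281895). The BTB zinc finger gene ZBTB47 had 96.2-fold in the control list (chromosome 2, 1993095 to 1993362), and no LPS peak overlapped it. ZBTB47 RNA was at 0.518 and 1.55 FPKM in LPS libraries and 3.63 and 5.05 FPKM in control libraries, without overlap, and was lower after LPS (log2 fold change −1.43, SE 0.30, limma adjusted p = 0.00751).

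Most LPS peaks had a counterpart in the control list, but the reverse was less common. Of the 625 last exon peaks of the LPS list, 537 (85.9%, 82.9 to 88.6%) shared at least 1 base on the same strand with a control peak of any class. Of the 718 of the control list, 366 (51.0%, 47.3 to 54.7%) shared a base with an LPS peak. Over all classes, 87.6% of LPS peaks and 64.1% of control peaks had a counterpart. Among 3′ UTR peaks these shares were 91.7% in LPS and 66.5% in control, and among internal exon peaks 83.1% and 64.9%. The control share of last exon peaks was thus the smallest of the 6 classes. Single exon peaks came next at 56.9% (50.1 to 63.6%, an interval that overlaps that of last exon peaks). A counterpart was found for 119 of the 178 control last exon peaks that reach the transcript end (66.9%). It was found for 247 of the 540 others (45.7%). For peaks of host genes at 1 FPKM or more in all 4 input libraries, the last exon control share was 59.6%. When the shared bases had to cover 50% of the longer peak, a setting chosen after seeing the data, the last exon shares were 55.2% in LPS and 40.7% in control. The other classes have no share here under either setting, so the rank of last exon peaks there was not tested.

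Among control peaks, the last exon share was below those of 3′ UTR and internal exon peaks in each of the 4 ranges of fold enrichment compared. Among control peaks under 3-fold, 24.8% of last exon peaks had an LPS counterpart, against 43.4% of 3′ UTR and 53.5% of internal exon peaks. At 12-fold or more the shares were 74.6%, 83.4% and 82.3%. The LPS list had its last exon share below that of 3′ UTR peaks throughout, but below that of internal exon peaks only from 6-fold up. Under 3-fold, 114 of its 152 last exon peaks (75%) had a control counterpart, against 81.5% of 3′ UTR and 66.6% of internal exon peaks. At 3-fold to 6-fold the shares were 87.3%, 92.7% and 87.2%. From 6-fold to 12-fold they were 90.0%, 94.5% and 95.3%, and at 12-fold or more 94.3%, 96.5% and 97.0%.

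**Figure D2:**
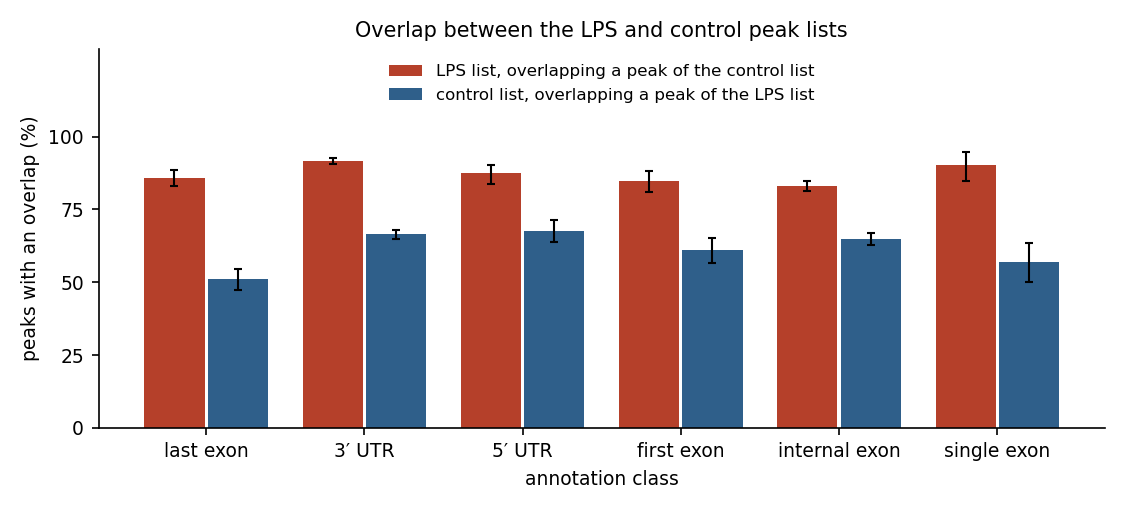
Percentage of peaks (vertical axis) that overlap a peak of the other list by at least 1 base on the same strand, for each annotation class (horizontal axis), LPS list left and control list right in each pair, with exact binomial 95% intervals that cover counting error only. Last exon peaks stand at 85.9% in the LPS list and 51.0% in the control list.

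The control counterpart of an LPS last exon peak was often longer and in part of another class. Of the LPS last exon peaks, 358 met a control last exon peak, 121 a control 3′ UTR peak and 45 a control internal exon peak. In the LPS list the peaks with a 3′ UTR counterpart had a median length of 180 bases, whereas the control counterparts had 510, and the control peak was longer in 118 of 121. Of the 91 with an unbroken 3′ UTR counterpart, the control peak reached farther downstream in 91, by a median of 180 bases. That direction is set by the labels, since the LPS peak lies outside the UTR and the control peak touches it. Control last exon peaks met an LPS last exon peak in 344 cases, and the LPS peak was the longer in 58 of these. They met an LPS internal exon peak in 15 cases and an LPS 3′ UTR peak in 6. Membership of the class therefore depends on how far a peak was called: the same place counts as last exon in LPS and as 3′ UTR in control where the control peak runs on into the UTR. Of the control last exon peaks, 19 met 2 or more LPS peaks, and of the LPS last exon peaks, 5 met 2 or more control peaks.

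Where a last exon peak of one list and a last exon peak of the other overlapped each other best, they were paired, which gave 341 pairs. Fold enrichment was lower in LPS in 264 pairs, higher in 76 and equal in 1, with a median log2 difference (LPS minus control) of −0.38 and a 95% interval for the median of −0.49 to −0.30, taken from the ordered differences. The median difference over the 4925 pairs of all classes was −0.25, with −0.49 for single exon pairs, −0.31 for 3′ UTR pairs and −0.05 for internal exon pairs. In 54 last exon pairs the fold enrichment was lower in LPS by 2-fold or more (15.8%), where 12.2% of all pairs and 19.3% of single exon pairs were. In 4 it was higher by 2-fold or more (1.17%), where 2.11% of all pairs were. The LPS peak was the shorter in 240 pairs, with median lengths over all pairs of 211 bases in LPS and 300 bases in control. In those 240 pairs the median difference was −0.54, in the 46 of equal length −0.12, and in the 55 with the longer LPS peak −0.01. Length thus moved with the difference in fold enrichment, and its part in the difference was not tested.

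The pairs lowest in LPS were those of SDK2, PLPPR3, KIAA1919, HINFP and RGMB. SDK2 had 17.1-fold over 61 bases in LPS and 471-fold over 241 bases in control (log2 difference −4.78). PLPPR3, of the phospholipid phosphatase-related proteins, had 4.49-fold over 91 bases in LPS and 80.6-fold over 655 bases in control (−4.17). KIAA1919 had 23.8-fold in LPS and 201-fold in control (−3.08). HINFP, whose peaks were of like length, 210 bases in LPS and 240 bases in control, had 13.7-fold and 103-fold (−2.91). RGMB, a co-receptor for bone morphogenetic proteins on chromosome Z, had 3.49-fold in LPS and 17.9-fold in control (−2.36). None of these 5 host genes passed the expression test, where limma's adjusted p was 0.0669 for SDK2, 0.126 for PLPPR3, 0.180 for KIAA1919, 0.379 for HINFP and 0.970 for RGMB. Input was low for PLPPR3, at 0.816 and 1.33 FPKM in LPS and 2.24 and 1.66 FPKM in control libraries. KIAA1919 was at 2.36 and 2.17 FPKM in LPS and 1.60 and 1.40 FPKM in control libraries. RGMB was at 0.695 and 1.37 FPKM in LPS and 1.08 and 0.959 FPKM in control libraries. The part of low input in these ratios was not tested.

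The pairs highest in LPS were NES with 83.1-fold in LPS and 13.4-fold in control (log2 difference 2.63), and MTSS1L with 170-fold and 28.3-fold (2.59). ATXN1, a nuclear RNA-binding and repressor protein, had 18.1-fold in LPS and 6.11-fold in control (1.57) over 209 bases in both. LARP4B, which binds and stabilises messenger RNA, had 7.38-fold and 3.58-fold (1.04). ALPL, the tissue-nonspecific alkaline phosphatase, had 15.6-fold in LPS and 7.92-fold in control (0.98) over the same 180 bases (chromosome 21, 6592682 to 6592861). ALPL RNA was at 9.04 and 10.7 FPKM in LPS and 17.7 and 18.4 FPKM in control libraries, without overlap, and was lower after LPS (log2 fold change −0.81, limma adjusted p = 0.0109). That call ended at equal library medians (0.0722) and without LPS library 1 (0.0669). The other 4 genes did not pass the expression test. Input was low for ATXN1, at 1.73 and 1.65 FPKM in LPS and 1.40 and 1.44 FPKM in control libraries. NES was at 3.42 and 2.24 FPKM in LPS and 1.11 and 1.67 FPKM in control libraries.

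**Figure D3:**
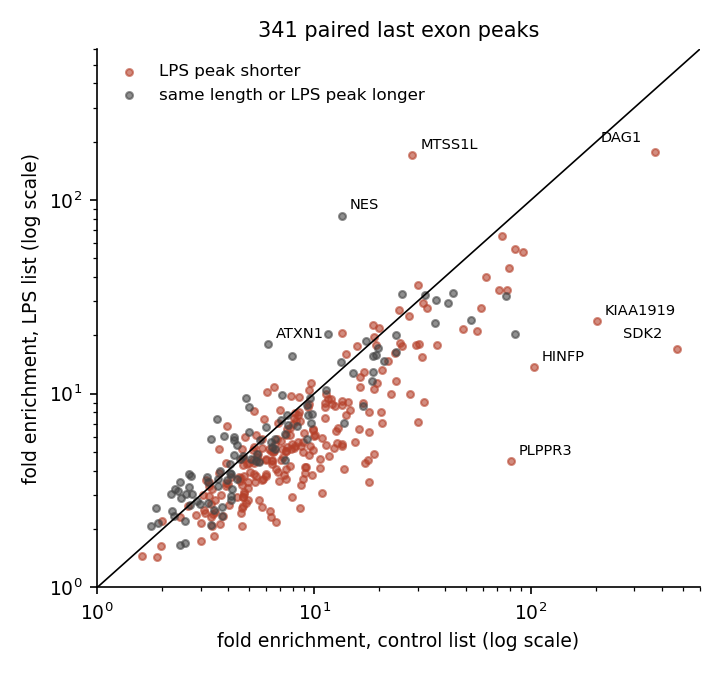
Fold enrichment in the LPS list (vertical axis, log scale) against the control list (horizontal axis, log scale) for the 341 paired last exon peaks, red where the LPS peak was the shorter and dark otherwise, with the line of equality. Most points, 264, lie below the line, and MTSS1L and NES stand furthest above it.

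Peaks without a counterpart were weaker and shorter. The 88 LPS peaks without one had a median fold enrichment of 3.29 over 121 bases, and the 537 with one 5.09 over 210 bases. The 352 control peaks without one had 3.96 over 151 bases, and the 366 with one 7.11 over 300 bases. In 33 of the 88, and in 93 of the 352, the gene still held a peak elsewhere in the other list. The gene was at 1 FPKM or more in both libraries of the other state for 72 of the 88 and 247 of the 352, so most had RNA in the state that lacked the peak. Counted by host gene, 231 of 326 hosts of control peaks without a counterpart reached that level in LPS, and 314 of 324 with one. In control, 61 of 76 hosts of LPS peaks without a counterpart reached it, and 452 of 463 with one. Low RNA was thus more common where the counterpart was missing, and its part was not tested. A fold enrichment of 10 or more was found in 7 of the 88 and 53 of the 352.

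Host genes are those whose own last exon holds the peak. They numbered 528 in the LPS list and 627 in the control list, 838 in all, with 317 in both (60.0% of the LPS and 50.6% of the control hosts). Over all classes, 3992 genes held a peak in the LPS list, 5048 in the control list and 5387 in either. A host missing from the other list may still hold a peak there at the same place under another class. RNF19B, ZFPM1 and CUX2, described below, are such hosts. A single last exon peak was held by 464 LPS hosts (87.9%) and 566 control hosts (90.3%). Of the 838 hosts 788 passed the filter on low values. Their levels were modest, with medians of 5.56 and 5.30 FPKM in LPS and 6.39 and 6.32 FPKM in control libraries over the 838. Genes with a 3′ UTR peak had medians of 11.4 and 11.4 FPKM in LPS and 14.2 and 15.2 FPKM in control libraries.

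Of the 788 tested host genes, 105 were higher after LPS (13.3%) and 209 lower (26.5%), and 474 did not pass (limma, Benjamini-Hochberg adjusted p under 0.05, 2 libraries against 2). Among all 9484 tested genes 10.7% were higher and 31.4% lower. The median log2 fold change was −0.27 for the hosts and −0.34 for all tested genes. With libraries scaled to equal medians, the median of all tested genes was −0.07, 148 hosts were higher and 118 lower, so the balance of the hosts turned, and over all tested genes 1341 were higher and 1594 lower. The direction of the hosts as a whole therefore depends on the scaling.

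The median change of the hosts differed with the list that held the peak. A gene can be counted in several of the sets below, and the sets with a counterpart share many genes. Of 73 tested hosts of LPS peaks without a control counterpart, 33 were higher and 3 lower, with a median log2 fold change of 0.59. Of 283 tested hosts of control peaks without an LPS counterpart, 6 were higher and 117 lower, with a median of −0.53. For hosts of LPS peaks with a counterpart the median was −0.20 (0.06 at equal medians, where its sign turned), and for hosts of control peaks with one −0.07 (0.19, likewise turned). At equal medians the hosts of LPS peaks without a counterpart had a median of 0.79, with 39 higher and 1 lower. Those of control peaks without one had a median of −0.28, with 15 higher and 67 lower. A peak is called from reads over the same input libraries that give the FPKM, so this split is not independent of the RNA level and is given as a description with no test.

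**Figure D4:**
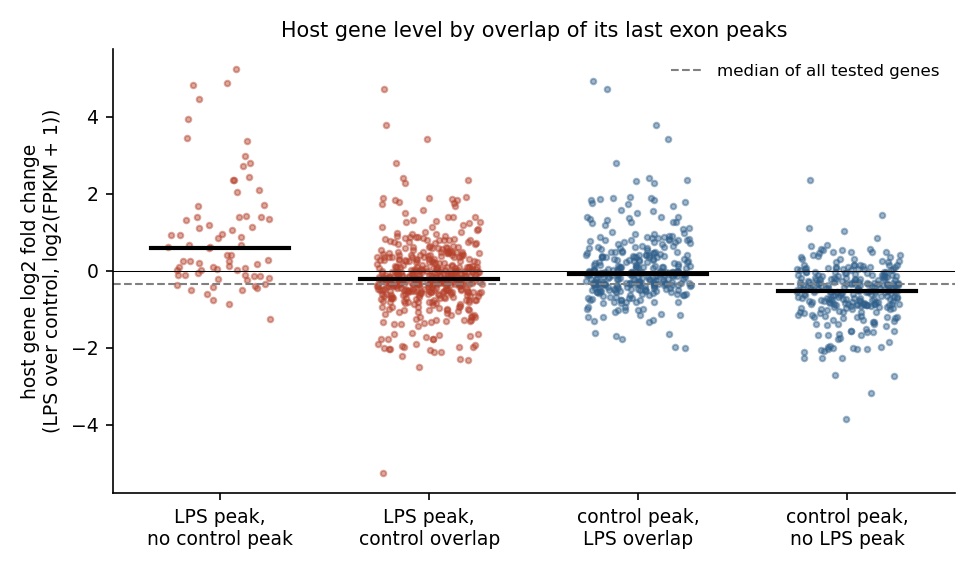
Log2 fold change of each tested host gene, LPS over control on the log2(FPKM + 1) scale (vertical axis), by whether its last exon peak overlapped a peak of the other list (horizontal axis), with black bars for medians and a dashed line for the median of all tested genes, −0.34. The medians are 0.59 for LPS peaks without a control peak and −0.53 for control peaks without an LPS peak. A gene can stand in several columns.

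The 5 hosts with the largest rise were NOXO1, RNF19B, TNIP2, IL4I1 and SDC4. NOXO1, an organiser of the NADPH oxidase, was at 260 and 247 FPKM in LPS and 8.79 and 3.70 FPKM in control libraries (log2 fold change 5.23, SE 0.32, limma adjusted p = 3.29e-05). Its last exon peak, of 1.66-fold, was in the LPS list only (chromosome 14, 6147835 to 6148014). RNF19B, a ubiquitin ligase, was at 66.3 and 81.2 FPKM in LPS and 1.09 and 1.91 FPKM in control libraries (4.92, adjusted p = 1.15e-05). Its last exon peak was in the control list, at 77.2-fold (chromosome 23, 5250652 to 5251037), and the LPS peak that overlapped it was a 3′ UTR peak of 34.7-fold. These RNA levels did not overlap between the states in either gene, but both genes were picked by their change in these same libraries.

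TNIP2, an inhibitor of NF-kB signalling, was at 96.7 and 114 FPKM in LPS and 2.87 and 2.38 FPKM in control libraries (log2 fold change 4.87, limma adjusted p = 6.80e-06). It held 4 LPS peaks, 1 of them in the last exon at 1.79-fold, and 0 control peaks. IL4I1, a secreted amino acid oxidase of immune cells, was at 88.4 and 115 FPKM in LPS and 2.26 and 2.94 FPKM in control libraries (4.83, adjusted p = 9.88e-06). All of its peaks were 3 last exon peaks of the LPS list, at 1.89-fold, 2.98-fold and 1.57-fold (chromosome 16, 191143 to 191857). SDC4, a heparan sulfate proteoglycan of the cell surface, was at 897 and 791 FPKM in LPS and 27.9 and 33.8 FPKM in control libraries (4.73, adjusted p = 6.46e-06). Its peak covered the same 120 bases in both lists (chromosome 20, 5486486 to 5486605), at 3.31-fold in LPS and 2.65-fold in control. In SDC4, then, the RNA level differed far more than the fold enrichment, whereas TNIP2 and IL4I1 had peaks in the LPS list alone. Control RNA of TNIP2 and IL4I1 ran from 2.26 to 2.94 FPKM. The part of that low level in the missing control peaks was not tested.

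Among hosts with a symbol, the 5 with the largest fall were PPP1R3B, PRSS35, HUNK, ZFPM1 and CUX2. In each the LPS and control libraries did not overlap, but the genes were picked by their change in these same libraries. PPP1R3B, which targets a phosphatase to glycogen, was at 1.18 and 1.13 FPKM in LPS and 108 and 60.5 FPKM in control libraries (log2 fold change −5.25, SE 0.27, limma adjusted p = 2.13e-05). Its LPS peak of 6.74-fold in the last exon overlapped a control 3′ UTR peak of 14.3-fold. PRSS35, a serine protease-like protein, was at 0.923 and 0.273 FPKM in LPS and 13.3 and 12.6 FPKM in control libraries (−3.16, adjusted p = 1.02e-04). Its 2 last exon peaks, at 5.13-fold and 2.48-fold, were in the control list alone. HUNK, a serine/threonine kinase, was at 0.637 and 1.24 FPKM in LPS and 8.50 and 15.3 FPKM in control libraries (−2.70, adjusted p = 5.07e-04). The single HUNK peak, of 10.3-fold, was in the control list. A pair of hosts without a symbol fell more than HUNK: ENSGALG00000006637, at 6.77 and 10.3 FPKM in LPS and 133 and 134 FPKM in control libraries (−3.85), and ENSGALG00000021693, at 21.2 and 27.2 FPKM in LPS and 151 and 177 FPKM in control libraries (−2.72). Both held a last exon peak in the control list alone.

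ZFPM1, a cofactor of GATA transcription factors, was at 4.62 and 4.74 FPKM in LPS and 25.6 and 37.2 FPKM in control libraries (log2 fold change −2.49, limma adjusted p = 1.87e-04). Its 3 LPS peaks in the last exon, at 26.7-fold, 3.81-fold and 8.97-fold, lay on 1 control peak of 79.4-fold that was annotated to an internal exon. CUX2, a homeobox transcription factor, was at 0.441 and 0.756 FPKM in LPS and 7.34 and 6.45 FPKM in control libraries (−2.31, adjusted p = 2.52e-04). Its LPS peak of 20.0-fold met a control internal exon peak of 19.5-fold. PPP1R3B, ZFPM1 and CUX2 thus kept a peak at the place, with another annotation class.

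**Figure D5:**
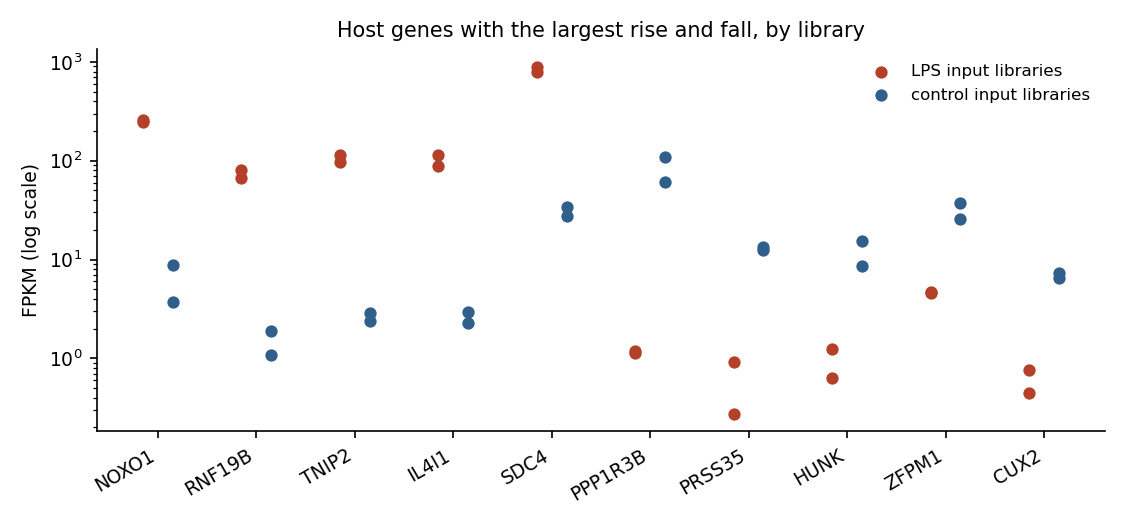
FPKM (vertical axis, log scale) in each of the 2 LPS input libraries (red, left) and 2 control input libraries (blue, right) for the 5 host genes with a symbol and the largest rise, from NOXO1 to SDC4, and the 5 with the largest fall, from PPP1R3B to CUX2. In each gene the LPS and control libraries do not overlap, but the genes were picked by their change in these same libraries.

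Several hosts carried a row of peaks along 1 long last exon. DISP1, which releases hedgehog ligands from cells, had the most, 5 in the LPS list and 3 in the control list. From the lowest coordinate up, the LPS peaks had 3.33-fold, 2.35-fold, 2.05-fold, 4.02-fold and 7.03-fold, and the control peaks 3.6-fold, 3.76-fold and 13.7-fold (chromosome 3, 17228286 to 17231881 over the LPS peaks). The farthest DISP1 base in a peak was 4315 bases from the transcript end in LPS and 4255 bases in control. DISP1 RNA was at 23.0 and 20.6 FPKM in LPS and 4.45 and 2.67 FPKM in control libraries (log2 fold change 2.35, SE 0.23, limma adjusted p = 3.16e-04), without overlap. The strongest peak of DISP1 was the same in both states, the one farthest upstream, and its fold enrichment was lower in LPS.

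ASXL1, a chromatin regulator of Polycomb function, had 3 peaks in the LPS list, at 3.58-fold, 4.15-fold and 6.96-fold, and 4 in the control list, at 3.98-fold, 3.22-fold, 10.6-fold and 8.0-fold (chromosome 20). Its RNA was at 3.62 and 3.10 FPKM in LPS and 3.25 and 3.19 FPKM in control libraries. MED1, the Mediator subunit that nuclear receptors bind, had 2 peaks in LPS and 5 in control, of at most 2.58-fold and 6.36-fold (chromosome 27). MED1 RNA was at 10.1 and 9.08 FPKM in LPS and 9.56 and 9.97 FPKM in control libraries, and neither gene passed the expression test (limma adjusted p = 0.872 for ASXL1 and 0.913 for MED1). BEND3, a repressor that binds heterochromatin, had 4 LPS peaks of 1.88-fold to 4.57-fold and 2 control peaks of 4.11-fold and 7.31-fold. BEND3 RNA was at 15.5 and 20.7 FPKM in LPS and 6.38 and 5.99 FPKM in control libraries and was higher after LPS (log2 fold change 1.40, adjusted p = 0.00169). The BTB zinc finger gene ZBTB42 had 3 peaks at matching places in both lists, at 10.4-fold, 18.2-fold and 13.0-fold in LPS and 11.3-fold, 24.9-fold and 17.0-fold in control (chromosome 5). ZBTB42 RNA was at 3.08 and 4.60 FPKM in LPS and 1.88 and 2.85 FPKM in control libraries, without overlap, and did not pass (adjusted p = 0.135). MED1 had fewer peaks in LPS and BEND3 more, while ZBTB42 kept its 3. Each of the 3 ZBTB42 peaks had a lower fold enrichment in LPS, as had 264 of the 341 last exon pairs (77.4%).

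Of the 838 hosts, 4.53% carried the annotation sequence-specific DNA binding in the authors' table, against 2.45% of the 4533 genes whose peaks were all elsewhere and 2.16% of all tested genes. Positive regulation of transcription was carried by 5.37% of hosts, 3.22% of the other genes with a peak and 2.68% of tested genes. Negative regulation of transcription from RNA polymerase II promoters was carried by 5.61%, 3.44% and 2.92%. Of the hosts with sequence-specific DNA binding, the T-box repressor TBX2 had 44.8-fold in LPS and 78.8-fold in control. Another was ZFHX3, a large homeobox protein, with 64.8-fold and 73.7-fold. Calcium ion binding was carried by 4.65% of hosts, 2.21% of the others with a peak and 2.49% of tested genes. DAG1, the cadherin FAT4, with 7.15-fold in LPS and 30.2-fold in control, and the Notch ligand JAG1, with 14.8-fold and 21.1-fold, were among them. The term mitochondrion was carried by 6.56% of hosts, 9.31% of the others and 9.39% of tested genes. These shares are a description with no test, and the terms and examples were chosen after their values were seen.

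Of the 17 chromatin regulators found in the table, 8 held a last exon peak (47.1%), against 6.24% of all genes of the table. Of the list 16 held a peak of any class, and among all genes with any peak 15.6% held one in the last exon. This gene list and those below were chosen with earlier results of these data known, so their shares are a description with no test. CREBBP, a histone acetyltransferase, had 3 peaks in the LPS list, at 17.8-fold, 3.58-fold and 5.02-fold, and 2 in the control list, at 3.19-fold and 8.90-fold. All 3 LPS peaks overlapped a control peak, and the counterpart of the 17.8-fold peak was a control 3′ UTR peak of 21.0-fold. ARID1B, a subunit of the BAF remodelling complex, had 3 LPS peaks, of at most 4.85-fold, where the control list had 1 peak of 1376 bases at 13.7-fold. TET3, which oxidises methylcytosine, had 9.15-fold, 8.57-fold and 3.02-fold in LPS and 13.5-fold and 11.2-fold in control. ASXL1 was described above, and the others were KAT6A, EP300, TET2 and KAT6B, the last pair in the control list alone.

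For the RNA of this list, 2 of its 14 tested members were higher and 3 lower after LPS (2 and 1 at equal medians), near the 10.7% higher and 31.4% lower of all tested genes, with a median log2 fold change of −0.20 (0.04 at equal medians, where the sign turned). CREBBP was at 6.49 and 6.87 FPKM in LPS and 10.8 and 12.3 FPKM in control libraries (−0.71, limma adjusted p = 0.0187), without overlap. Its call ended at equal medians (0.127), without LPS library 1 (0.0998), without LPS library 2 (0.0701) and without control library 2 (0.0571). ARID1B and TET3 did not pass (adjusted p = 0.119 and 0.404).

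Of the feedback genes of NF-kB and cytokine signalling, 4 of 21 found in the table held a last exon peak, all 4 in the LPS list and 1 in the control list. That was 19.0% of the list, in which 20 genes held a peak of any class, against 15.6% of all genes with any peak. CISH, an inhibitor of cytokine receptor signalling, had the strongest, at 17.3-fold over 409 bases in LPS and 19.8-fold over 380 bases in control (chromosome 12, from 1831238). CISH RNA was at 125 and 159 FPKM in LPS and 53.7 and 34.7 FPKM in control libraries (log2 fold change 1.69, limma adjusted p = 0.00149). The adaptor TRAF3 had 3.05-fold, and REL, an NF-kB subunit, had 2 peaks at 2.31-fold and 2.59-fold. Neither had a peak in the control list. TRAF3 was at 3.41 and 2.92 FPKM in LPS and 0.789 and 0.405 FPKM in control libraries (1.39, adjusted p = 0.00317), and REL at 8.64 and 8.47 FPKM in LPS and 4.55 and 3.58 FPKM in control libraries (0.92, adjusted p = 0.00896). TNIP2, given above, was the remaining one, and in all 4 genes the libraries of the states did not overlap. Of the 21 tested members of the list 18 were higher after LPS and 1 lower (19 and 1 at equal medians). Their median log2 fold change was 2.76. Among all tested genes 10.7% were higher and 31.4% lower, and at equal medians 1341 and 1594 of 9484.

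Among plasma proteins of hepatocytes 2 of 18 held a last exon peak (11.1%), where 6.24% of all genes of the table and 8.31% of all tested genes did. A peak of any class was held by 13 of the list, and 15.6% of all genes with any peak held a last exon peak. The count of 2 is too small to set apart from these shares. APOB, the core protein of lipoproteins, had 2.16-fold in LPS and 1.90-fold in control over the same 121 bases (chromosome 3, 101883817 to 101883937), and ITIH2, an inter-alpha-trypsin inhibitor chain, 1.5-fold over 60 bases in the LPS list only. Both were abundant and did not pass the expression test, with APOB at 166 and 122 FPKM in LPS and 179 and 104 FPKM in control libraries and ITIH2 at 612 and 474 FPKM in LPS and 457 and 531 FPKM in control libraries. Of this list 4 of 18 tested members were higher and 2 lower (8 and 1 at equal medians). Their median log2 fold change was 0.18. Among all tested genes 10.7% were higher and 31.4% lower, and at equal medians 1341 and 1594 of 9484.

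Among lipid synthesis genes 1 of 17 held a last exon peak (5.88%), close to the 6.24% of all genes of the table: ELOVL6, an elongase of fatty acids, at 1.75-fold in the control list alone. A peak of any class was held by 12 of these genes, and 15.6% of all genes with any peak held a last exon peak. The count of 1 is too small to set apart from either share. ELOVL6 RNA was at 143 and 99.5 FPKM in LPS and 291 and 239 FPKM in control libraries and was lower after LPS (log2 fold change −1.14, limma adjusted p = 0.00528). The list had 17 tested members, of which 3 were higher and 13 lower, and the same counts held at equal medians. Their median log2 fold change was −1.97. Among all tested genes 10.7% were higher and 31.4% lower, and at equal medians 1341 and 1594 of 9484. Of the 9 nuclear receptors and coregulators that were found, 0 held a last exon peak and 6 held a peak of any class, a count too small to set apart from the 6.24% of all genes of the table. In this list 0 of the 7 tested were higher and 5 lower (0 and 4 at equal medians), with a median of −1.12. For so few genes this stands beside 10.7% higher and 31.4% lower among all tested genes.

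Of the 16 genes of the m6A machinery found in the table, 13 held a peak of any class and 3 a last exon peak (18.8%, against 6.24% of all genes of the table and 15.6% of genes with any peak). RBM15, which recruits the writer complex to RNA, had 8.75-fold in LPS and 13.4-fold in control (chromosome 26). WTAP had 2.84-fold over 210 bases in LPS and 4.97-fold over 387 bases in control, and the reader YTHDF3 2.38-fold and 3.41-fold. Each of the 3 peaks was found in both lists and had a lower fold enrichment in LPS, as had 264 of the 341 last exon pairs (77.4%). RBM15 was at 2.52 and 1.99 FPKM in LPS and 1.22 and 2.47 FPKM in control libraries, and YTHDF3 at 7.83 and 9.15 FPKM in LPS and 9.07 and 8.74 FPKM in control libraries, with overlap in both genes. WTAP was at 24.7 and 25.4 FPKM in LPS and 18.3 and 16.7 FPKM in control libraries, without overlap. None of the 3 passed the expression test (limma adjusted p = 0.531 for RBM15, 0.0512 for WTAP and 0.797 for YTHDF3). Of 15 tested members of the list 1 was higher and 4 lower, near the 10.7% and 31.4% of all tested genes (2 and 0 at equal medians, where the balance turned; median log2 fold change −0.07, and 0.21 at equal medians).

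Chromosome 3 held a larger share of last exon peaks than of all peaks. It held 70 of the LPS peaks (11.2%) and 77 of the control peaks (10.7%), against 6.40% of all LPS and 6.49% of all control peaks. Chromosome Z, a sex chromosome, held 16 LPS peaks (2.56%) and 35 control peaks (4.87%), against 2.54% of all LPS and 2.76% of all control peaks. Chromosomes 1, 2, 4 and 5 held 12.3%, 6.72%, 7.20% and 7.68% of the LPS and 10.7%, 8.08%, 7.24% and 6.82% of the control last exon peaks. Of all peaks they held 11.1%, 6.35%, 6.06% and 6.16% in LPS and 11.1%, 6.49%, 6.05% and 6.11% in control.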

How the data were processed

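Poly(A) RNA of broiler liver was fragmented and sequenced as input and after m6A immunoprecipitation, per the labels' protocols. HISAT2, StringTie, HOMER and ChIPseeker are named in the submitters' processing notes without roles or versions. Which genome build and peak caller were used is not given in the sources used here. FPKM were deposited by the authors for 13427 genes, with 1 column for each input library, as was 1 pooled peak list for each state, with a fold enrichment (ratio) and a p-value for each peak. The p-value is listed as 0 for 36 LPS and 35 control last exon peaks. Names with Treat were read as LPS, since the labels name no other treatment.

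Each list held 1 exact repeat, which was dropped. In 16 LPS and 14 control last exon peaks the annotated exon belonged to another gene than the one assigned, and these were left out of host gene counts. In each list 4 last exon peaks overlapped another. Expression was tested on log2(FPKM + 1) with limma 3.58.1 (trended prior variance; R 4.3.3). Genes had to average 1 FPKM or more across the input libraries, which left 9484, and p-values were adjusted over all of these (Benjamini-Hochberg). Fold changes on that scale understate the change of low genes. Overlaps (Python 3.11.15; pandas 2.3.3; numpy 2.4.6; scipy 1.17.1) were counted by shared exonic bases on the strand of the assigned gene. The limma and overlap steps were tested on simulated data.

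Members, the 6 gene lists and tests were chosen with earlier results of these data known. Peaks and genes named, among those with a symbol, are, per list, the 5 with the highest fold enrichment, the 5 pairs with the largest difference each way, the 5 hosts with the largest rise and fall, the 5 hosts with the most peaks and up to 4 members of each gene list. The alternatives tried were another pseudocount, no filter, equal library medians, a replicate block, leaving out each input library, stricter peak thresholds and other overlaps.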

Additional observations from a re-analysis of the deposited data

How the results depend on the processing

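Against 105 host genes higher and 209 lower after LPS, equal library medians gave 148 and 118, and hosts of peaks with a fold enrichment of at least 5, which are fewer (412 tested), gave 58 and 90. Leaving out 1 input library in turn gave 80 to 110 higher and 157 to 173 lower. With the replicate number as a block the counts were 112 and 221; the numbers do not pair the libraries by the labels, and the correlation of their deviations was 0.0292. Requiring 50% of the longer peak, an alternative chosen after seeing the data, gave overlaps of 55.2% of LPS and 40.7% of control last exon peaks, and host genes at 1 FPKM or more in all 4 input libraries gave 59.6% of control peaks. The last exon share was 9.68% of the LPS list at a p-value of at most 1e-10, 13.2% of the LPS and 12.0% of the control list with single exons counted, and 8.26% of the control list for hosts at 1 FPKM or more. The cause of these shifts was not tested, apart from those set by construction. The median difference of paired peaks stayed between −0.38 and −0.31 under the 4 alternatives tried. The peak lists are pooled, so no library could be left out of them, and the depth behind a peak is unknown.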
